A study of Mus musculus with 6 samples.

Results

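Transcripts of 10 dual-specificity phosphatases that act on mitogen-activated protein (MAP) kinases were followed in cells from mouse tumours: Dusp1, Dusp2, Dusp3, Dusp4, Dusp5, Dusp6, Dusp7, Dusp8, Dusp10 and Dusp16. Their rows were found by gene symbol, 10 of the 17191 genes in the deposited tables, and all 10 passed the filter on low counts that left 12721 genes for testing. The family was selected on the contrast of TP-18 with vehicle: it was put forward with its fold changes and p-values in view, and Dusp5 was known to pass. The members' differences between the groups are therefore a description of these libraries, and nothing rests on them as a test.

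The cells came from tumours of the mouse colorectal cancer line CT26, implanted under the skin of BALB/c females that were 6 to 8 weeks old, and treatment began when tumours reached 100 to 200 mm3. The vehicle group and the TP-18 group had 3 libraries each. TP-18, for which the labels give only a code name, was dosed orally every day at 50 mg/kg over 3 weeks. The labels give more than one account of the cells: a flow sort for CD11b, F4/80 and CD206 in the design, bead selection for CD11b in the treatment protocol, and the CT26 line in the sample fields. They do not state that each library is a separate mouse, so the spread between libraries may be partly technical. Itgam (CD11b), Mrc1 (CD206) and Adgre1 (F4/80) were present in every library, at no less than 803, 721 and 99.9 CPM (counts scaled to a common library size), and 5 epithelial or tumour markers (Epcam, Krt8, Krt18, Krt19 and Cdh1) summed to 4.92 to 10.01 CPM in vehicle and 5.75 to 7.44 CPM in TP-18 libraries, with a positive difference for 1 of the 3 tested. No expression reference for CT26 cells was used, so this sum does not measure the share of tumour cells. Library totals were 16371128 to 17597645 counts. These are bulk RNA libraries, in which fewer cells of a type and less RNA per cell cannot be told apart. Summed markers of fibroblasts and pericytes (7 of 7 genes with positive differences) were 665 to 1009 CPM with vehicle and 1277 to 1548 CPM with TP-18. Those of mast cells (5 of 5) were 3.24 to 5.65 and 10.6 to 32.4 CPM. Those of dendritic cells, of which 3 of 6 genes were tested, all with negative differences, were 8.37 to 14.3 and 4.88 to 6.28 CPM. Of that low sum Zbtb46 made up 7.19 CPM with vehicle and 3.20 CPM with TP-18 on average. The untested Xcr1, Clec9a and Siglech were at most at 0.485 CPM in any library, and Xcr1 and Clec9a had higher means with TP-18. Summed markers of endothelial cells (5 of 5 positive) were 30.4 to 145 and 90.4 to 159 CPM, with the groups overlapping. Of these, Kdr had 9.34, 9.82 and 11.3 CPM with vehicle and 27.9, 21.4 and 20.5 CPM with TP-18 (edgeR adjusted p = 0.0863). Macrophage markers (7 of 8 negative) were 6358 to 17765 and 6256 to 8544 CPM. Of that sum Apoe made up 7763, 3248 and 11102 CPM with vehicle and 3119, 2692 and 3229 CPM with TP-18, and without Apoe the sums were 3110 to 6662 and 3564.5 to 5315 CPM, with the groups overlapping. Monocyte markers (3 of 5 positive) summed to 111, 955 and 335 CPM with vehicle and 152, 493 and 222 CPM with TP-18, varying widely within each group. The part of these cell types in the results below was not tested.

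MAP kinases (ERK, JNK and p38) are switched on by phosphorylation of a threonine and a tyrosine in their activation loop, and dual-specificity phosphatases remove both phosphates. Several of these phosphatases are transcribed when the kinase pathway is active and so form a negative feedback loop. In macrophages, DUSP1 is known for limiting p38 and JNK signalling and cytokine output after Toll-like receptor stimulation, and DUSP5 and DUSP6 are known as phosphatases of ERK in the nucleus and in the cytoplasm.

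All 10 members had lower mean CPM in the TP-18 libraries than in vehicle, by very unequal amounts. Their median log2 fold change was -0.60, against 0.02 for all genes tested, of which 47.4% were negative. Dusp5 was 2.82-fold lower, Dusp2 and Dusp16 were 2.04-fold and 2.01-fold lower, and Dusp7 was 1.85-fold lower. Dusp6 and Dusp8 differed least, at 1.05-fold and 1.14-fold. In the fit over all genes (edgeR, Benjamini-Hochberg threshold 0.05), 1 of the 10, Dusp5, was called lower, where 0.0865% of all tested genes were. None was called higher (0 at an unadjusted p under 0.05, 0 by DESeq2 and 0 by limma-voom), where 0.0236% of all tested genes were. At an unadjusted p under 0.05, 8 members were lower and 0 higher, against 8.7% and 7.56% of all genes. In 7 members every TP-18 library lay below every vehicle library, against 11.7% of all genes, and in Dusp4, Dusp6 and Dusp8 the groups overlapped.

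**Figure D1:**
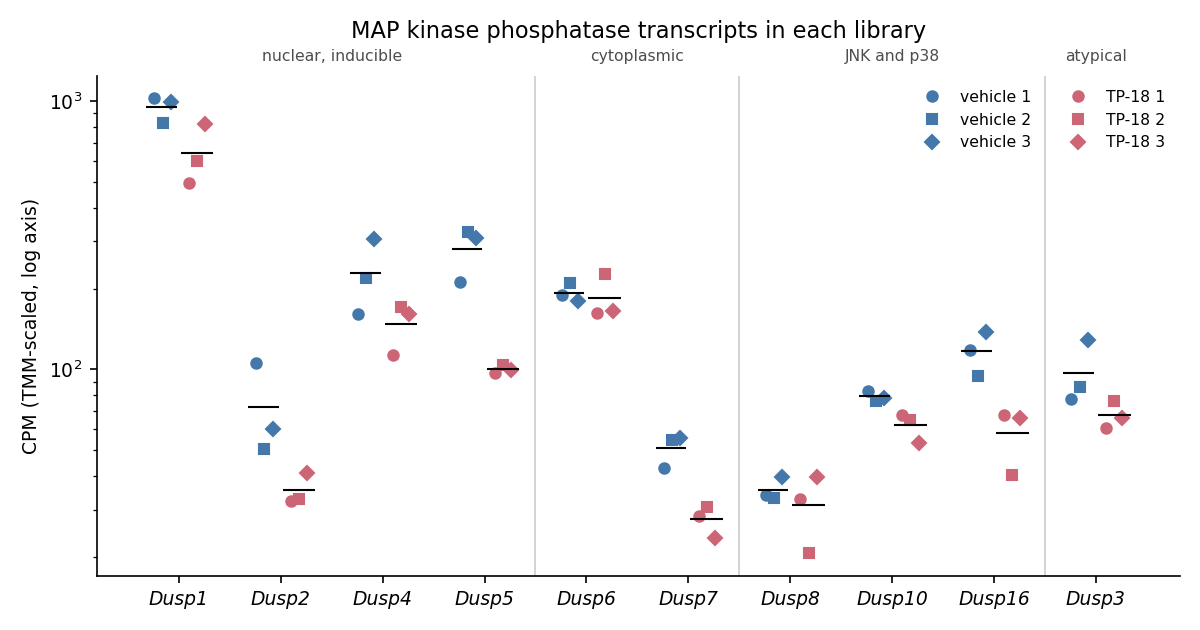
CPM on TMM-scaled library sizes (log axis) of the 10 phosphatase genes in each of the 6 libraries, blue for vehicle and red for TP-18, with a bar at each group mean (n = 3). Dusp5 sits at 211 to 326 CPM with vehicle and 96.9 to 104 CPM with TP-18, whereas the groups overlap for Dusp4, Dusp6 and Dusp8.

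**Figure D2:**
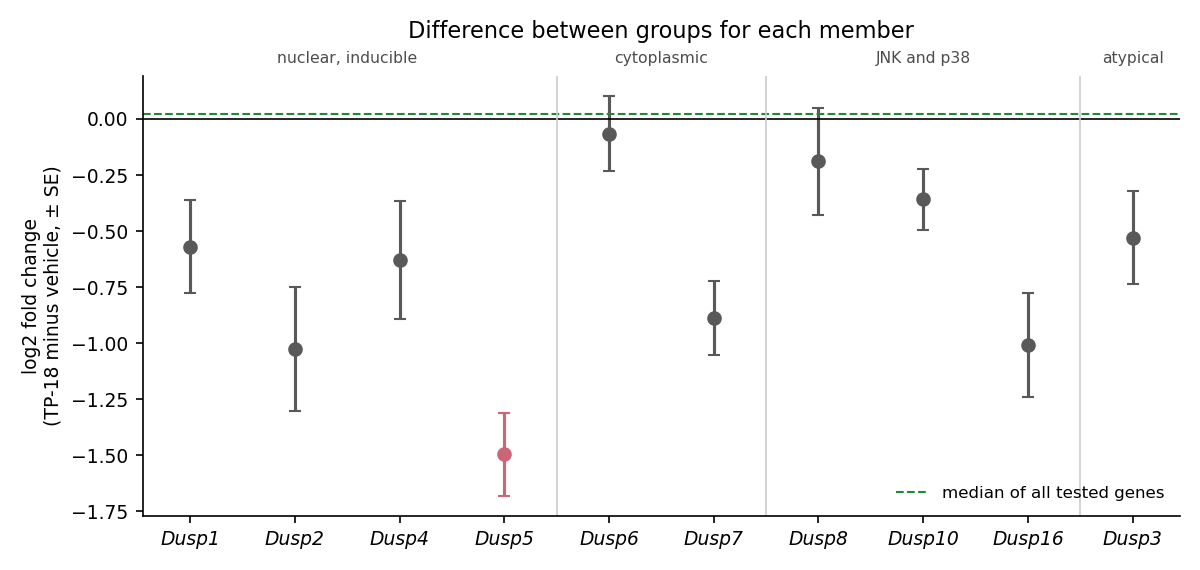
Log2 fold change (TP-18 minus vehicle) with its SE from the edgeR fit for each gene, ordered by the protein's usual location and substrates; red marks the 1 gene past the adjusted threshold. All 10 points lie below 0, from -1.49 for Dusp5 to -0.07 for Dusp6, and the dashed line is the median of all tested genes (0.02).

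Scaling matters for how many members stand apart. TMM factors of 0.924 to 0.962 in vehicle and 1.05 to 1.07 in TP-18 libraries shifted all genes together, and with library totals as scaling the median of all genes was 0.20 and that of the members -0.42. The distance between members and all genes was -0.62 on the log2 scale under both, as a shift of all genes together leaves it nearly unchanged. With a library left out that distance ran from -0.48 (without vehicle 3) to -0.75 (without TP-18 3). On the authors' FPKM values, which divide counts by gene length and library total, the groups did not overlap for 4 members, Dusp2, Dusp5, Dusp7 and Dusp16, against 4.76% of all genes. The same 4 were the members called by DESeq2, which called 2.51% of its tested genes lower. On that scale Dusp1, Dusp3 and Dusp10 overlapped between groups.

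The nuclear, inducible phosphatases are Dusp1, Dusp2, Dusp4 and Dusp5. Dusp5, which dephosphorylates ERK in the nucleus and holds it there, had 211, 326 and 307 CPM in vehicle 1, 2 and 3 and 96.9, 104 and 99.4 CPM in TP-18 1, 2 and 3. The lowest vehicle library was still 2.04 times the highest TP-18 library, and the TP-18 libraries lay within 1.07-fold of each other against 1.54-fold in vehicle. Its log2 fold change was -1.49 ± 0.19 (SE, n = 3 per group), lower than in all but 0.755% of tested genes, with an edgeR adjusted p = 0.0493, just inside the threshold. This call ended, with the direction kept, when any one of vehicle 2, vehicle 3, TP-18 1, TP-18 2 or TP-18 3 was left out (edgeR adjusted p = 0.1104, 0.163, 0.261, 0.201 and 0.173), and stayed without vehicle 1 (0.0317). It also ended with library totals as scaling (0.0651), and over all alternatives the adjusted p ran from 7.59e-10 (DESeq2) to 0.261.

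**Figure D3:**
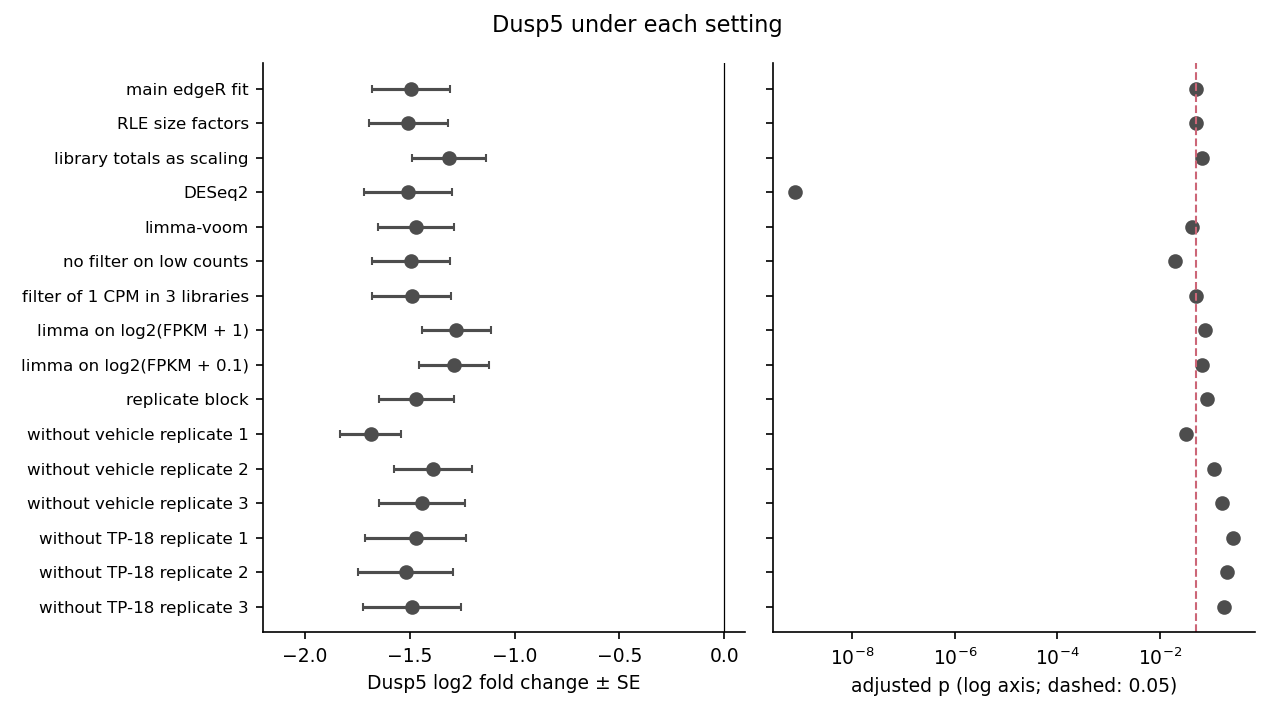
Dusp5 log2 fold change with SE (left) and adjusted p on a log axis (right) under the edgeR fit of the report and each alternative setting, with the 0.05 threshold dashed. The fold change stays between -1.69 and -1.28 while the adjusted p lies on either side of the threshold.

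Dusp1, the archetypal MAP kinase phosphatase of the stress and glucocorticoid responses, was the most abundant member, at 1022, 825 and 994 CPM with vehicle and 495, 599.6 and 820.5 CPM with TP-18. The groups only just failed to overlap, with vehicle 2 and TP-18 3 within 1.01-fold of each other. Its log2 fold change was -0.57 ± 0.21 (SE). Dusp2, a nuclear phosphatase prominent in immune cells, had 106, 50.7 and 59.9 CPM with vehicle and 32.5, 32.8 and 41.01 CPM with TP-18, a log2 fold change of -1.03 ± 0.28. Vehicle 1 was high among its group for Dusp2, while the same library was the lowest vehicle library for Dusp5 and Dusp4. Dusp4, a nuclear phosphatase of ERK and JNK, had 160.4, 219 and 307 CPM with vehicle and 113, 170.3 and 160.4 CPM with TP-18. Its groups overlapped, with vehicle 1 below TP-18 2 and level with TP-18 3. The log2 fold change was -0.63 ± 0.26.

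Promoter sequences of 3 members are shown because they bracket the data: Dusp5 had the largest difference, Dusp1 the highest level, and Dusp8 one of the smallest differences with the most cAMP response elements. Each runs from 250 bases before to 50 bases after the RefSeq start on GRCm38.p6, in the direction of transcription, with cAMP response elements (TGACGTCA), their core (TGACG or CGTCA) and CArG boxes, the letters bound by serum response factor, in capitals. Dusp5 lies at chr19:53528895-53529194 on the plus strand, Dusp1 at chr17:26508423-26508722 on the minus strand and Dusp8 at chr7:142095235-142095534 on the minus strand.
Dusp5: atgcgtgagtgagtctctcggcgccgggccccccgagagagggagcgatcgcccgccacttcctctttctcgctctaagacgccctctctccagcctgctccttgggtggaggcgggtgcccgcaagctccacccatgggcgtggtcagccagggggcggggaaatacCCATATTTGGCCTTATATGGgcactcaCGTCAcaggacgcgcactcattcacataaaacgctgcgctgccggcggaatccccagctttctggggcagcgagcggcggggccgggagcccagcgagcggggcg
Dusp1: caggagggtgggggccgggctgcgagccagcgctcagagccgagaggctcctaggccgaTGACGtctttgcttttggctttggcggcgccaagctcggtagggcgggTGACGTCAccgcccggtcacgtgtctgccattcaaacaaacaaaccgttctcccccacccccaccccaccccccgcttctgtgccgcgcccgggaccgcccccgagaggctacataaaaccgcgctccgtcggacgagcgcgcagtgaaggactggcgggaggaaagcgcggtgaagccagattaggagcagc
Dusp8: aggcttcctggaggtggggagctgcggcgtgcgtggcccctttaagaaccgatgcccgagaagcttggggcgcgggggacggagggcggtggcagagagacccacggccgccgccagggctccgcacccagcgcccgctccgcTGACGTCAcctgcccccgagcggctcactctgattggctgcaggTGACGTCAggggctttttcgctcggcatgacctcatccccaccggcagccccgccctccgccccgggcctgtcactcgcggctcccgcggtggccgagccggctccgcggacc

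In the Dusp5 window 2 adjacent CArG boxes, CCATATTTGG and CCTTATATGG, began 82 and 72 bases before the start, followed by 1 core. No other member's window held a CArG box, and 1.63% of the 32851 promoters of this length did. The full cAMP response element was found once in the Dusp1 window and at 2 places in the Dusp8 window, against 1.79% of all promoters with at least 1. The core was found in 5 of the 9 members with a sequence (Dusp1, Dusp2, Dusp5, Dusp8 and Dusp16), against 20.8% of all promoters, and each full element also counts as cores. The Dusp1 and Dusp2 windows each also held an E-box (CACGTG), as did 7.15% of all promoters. None of the 9 windows matched AP-1 (TGANTCA), NF-kB, EGR1 (GCGTGGGCG) or ETS (CCGGAAGT) letters on either strand, which says only that these letters are not in these windows. Shares of all promoters with those letters were 7.81%, 8.46%, 0.612% and 3.89%. The windows of Dusp3, Dusp6, Dusp7 and Dusp10 held none of the motifs searched. No entry was used for Dusp4.

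The cytoplasmic, ERK-selective phosphatases are Dusp6 and Dusp7. Dusp6, which binds ERK and is a standard readout of ERK activity, had 189, 210.5 and 180.3 CPM with vehicle and 162, 226 and 165 CPM with TP-18. TP-18 2 was the highest of the 6 libraries and the groups overlapped. The log2 fold change was -0.07 ± 0.17 (SE), and with library totals as scaling it was 0.11. Dusp7, which shares its location and substrate, had 43.0, 54.7 and 55.6 CPM with vehicle and 28.6, 30.7 and 23.6 CPM with TP-18. Every TP-18 library was below every vehicle library, with a log2 fold change of -0.89 ± 0.16. Dusp9, a related ERK phosphatase outside the member list, had 16.6, 28.9 and 17.4 CPM with vehicle and 11.7, 12.9 and 13.05 CPM with TP-18.

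Ratios within a library do not depend on how libraries are scaled. The FPKM of Dusp5 was 1.99, 2.75 and 3.02 times that of Dusp6 in vehicle and 1.06, 0.812 and 1.07 times that of Dusp6 in TP-18 libraries. The size of such a ratio depends on the gene lengths, and with GENCODE exon lengths it was 1.42 to 2.16 in vehicle and 0.581 to 0.762 in TP-18 libraries. With either length the nuclear ERK phosphatase transcript exceeded the cytoplasmic one in every vehicle library, and the groups did not overlap. Dusp5 had the largest difference of the members and Dusp6 the smallest, so separation of their ratio follows from the choice of pair. The share of other gene pairs that separate was not computed. The ratio of Dusp7 to Dusp6 was 0.228, 0.2599 and 0.309 in vehicle and 0.176, 0.136 and 0.143 in TP-18 libraries, also without overlap. The ratio of Dusp1 to Dusp6 was 8.97, 6.49 and 9.12 in vehicle and 5.04, 4.39 and 8.22 in TP-18 libraries, with TP-18 3 inside the vehicle range.

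The phosphatases that prefer JNK and p38 are Dusp8, Dusp10 and Dusp16. Dusp16, which acts on JNK and shuttles between nucleus and cytoplasm, had 118, 94.6 and 137 CPM with vehicle and 67.9, 40.5 and 65.9 CPM with TP-18, a log2 fold change of -1.01 ± 0.23 (SE). Dusp10, known for restraining JNK in T cells and innate immune cells, had 83.2, 76.2 and 78.6 CPM with vehicle and 67.7, 64.6 and 53.3 CPM with TP-18, a log2 fold change of -0.36 ± 0.13. Both were lower in every TP-18 library, Dusp10 by a small margin. Dusp8 had 33.9, 33.1 and 39.8 CPM with vehicle and 33.05, 20.7 and 39.9 CPM with TP-18. Its TP-18 libraries lay on both sides of the vehicle libraries, and the log2 fold change of -0.19 ± 0.24 became 0.04 without TP-18 2, the library in which Dusp8 and Dusp16 were both lowest. Dusp3, a small atypical phosphatase of ERK and JNK that lacks the kinase-binding domain of the others, had 77.6, 86.3 and 128 CPM with vehicle and 60.7, 76.0 and 65.7 CPM with TP-18. Its groups were separated by 1.02-fold, and vehicle 3 was the highest library, as it was for Dusp4. Apart from Dusp5, the edgeR adjusted p-values of the members ran from 0.112 (Dusp7) to 0.875 (Dusp6).

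The family was selected on this contrast, so lowest values falling in TP-18 libraries follow from that choice and are not a further result. TP-18 1 was the lowest of the 6 libraries for 6 members, and TP-18 2 and TP-18 3 for 2 each, while no vehicle library was lowest for any. The matching share over all tested genes was not computed. Vehicle 3 was the highest for 4 members, vehicle 1 for 3 and vehicle 2, TP-18 2 and TP-18 3 for 1 each. With a vehicle library left out all 10 log2 fold changes stayed negative, and with a TP-18 library left out 9 did, the exception being Dusp6 without TP-18 1 or TP-18 3 and Dusp8 without TP-18 2.

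Levels can be compared between genes only per length, on the FPKM scale. In vehicle the order was Dusp1 (459 ± 55.7 FPKM, SD, n = 3), Dusp5 (146 ± 29.5), Dusp4 (88.2 ± 26.8), Dusp6 (56.5 ± 4.71), Dusp2 (42.2 ± 18.2), Dusp3 (20.5 ± 5.34), Dusp16 (20.3 ± 3.61), Dusp7 (14.9 ± 1.78), Dusp10 (9.76 ± 0.619) and Dusp8 (6.09 ± 0.541). The ranges over libraries overlapped between Dusp5 and Dusp4, Dusp6 and Dusp2, and Dusp3 and Dusp16. In TP-18 libraries Dusp1 was again first (349.7 ± 93.3 FPKM) and Dusp5 (58.6 ± 2.28) came at rank 4, after Dusp4 (64.9 ± 13.7) and Dusp6 (61.1 ± 12.03). Those 3 overlapped in sequence, as did Dusp16, Dusp7, Dusp10 and Dusp8 at the low end. The length behind the FPKM of Dusp10 is 7641 bases, whereas GENCODE M21 gives it 3042 exonic bases, and with the latter Dusp10 moves from rank 9 to rank 6 in vehicle and rank 5 in TP-18 libraries. Dusp5 is at rank 2 in vehicle and rank 4 in TP-18 libraries with either length.

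Added up, the 10 transcripts came to 868, 806 and 914 FPKM in vehicle and 501, 611 and 715 FPKM in TP-18 libraries, without overlap between the groups. As the family was selected on this contrast, lower sums with TP-18, here and for its subsets below, follow from that choice. They are not a further result. Dusp1 alone made up 49.3% to 58.3% of the sum in vehicle and 53.6% to 63.2% in TP-18 libraries. With GENCODE lengths, which give Dusp1 3311 exonic bases in place of 1942, its share was 39.4% to 47.9% and 41.8% to 52.2%. Those 3311 bases join the exons of all its GENCODE transcripts. The GENCODE span of Dusp1, on the minus strand, starts at 26562128, far upstream of its RefSeq window at 26508423 to 26508722. The longer length may thus include exons of a longer transcript, which was not examined. The share of Dusp5 was 12.9% to 20.9% in vehicle and 8.19% to 11.2% in TP-18 libraries. That of Dusp6 was 5.67% to 7.598% and 7.69% to 12.3%. With GENCODE lengths the share of Dusp5 was 13.3% to 20.9% and 8.46% to 10.97%, and that of Dusp6 8.00% to 10.6% and 11.1% to 16.8%. The nuclear members together had 679 to 780 FPKM in vehicle and 395 to 608 FPKM in TP-18 libraries, and without Dusp1 they had 239 to 307 and 127 to 157 FPKM. Those that prefer JNK and p38 had 31.4 to 39.7 and 21.04 to 28.9 FPKM, also without overlap, and the cytoplasmic pair had 67.8 to 77.1 and 62.7 to 85.1 FPKM.

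**Figure D4:**
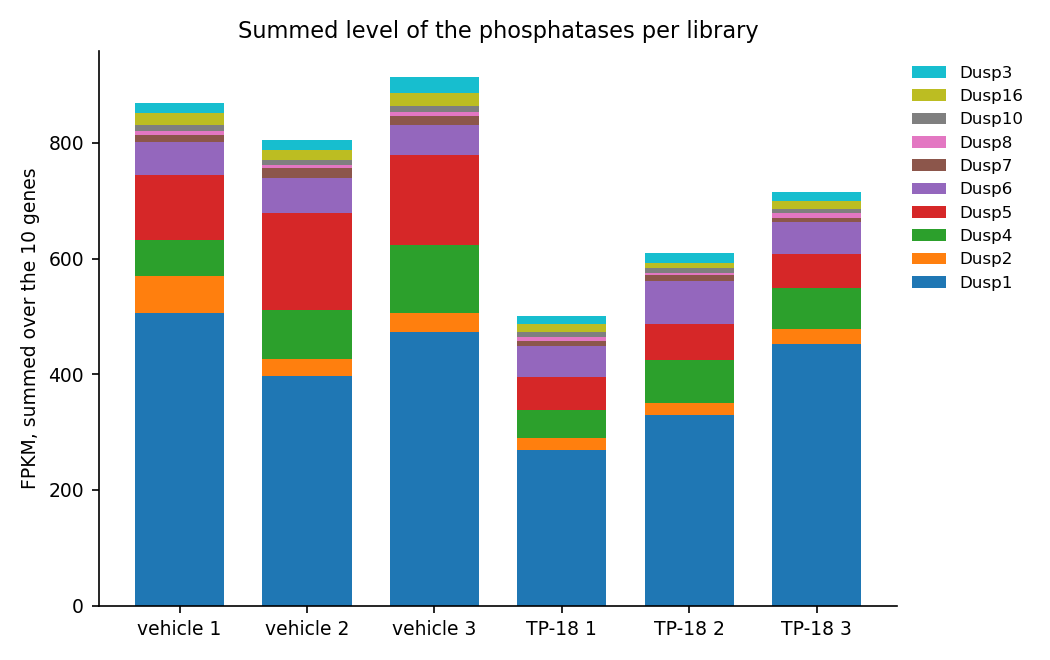
FPKM of the 10 phosphatase genes stacked for each library, from 0. The vehicle bars reach 806 to 914 FPKM and the TP-18 bars 501 to 715 FPKM, with Dusp1 the largest block in all 6 and the Dusp5 block smaller in the TP-18 libraries.

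The rest of the MAP kinase pathway was read from lists of related genes. Of the kinases themselves 9 were tested and edgeR called 0 (0 by DESeq2, which called 3.69% of its genes in either direction, and 0 by limma-voom), with 2 lower and 1 higher at an unadjusted p under 0.05 and a median log2 fold change of -0.10. Mapk3, which encodes ERK1, had 208 ± 35.4 CPM with vehicle and 197 ± 17.4 CPM with TP-18 (SD, n = 3). Mapk8 (JNK1) had 40.9 ± 6.29 and 28.9 ± 1.26 CPM, Mapk7 (ERK5) 33.3 ± 1.14 and 26.4 ± 2.19 CPM, and Mapk14 (p38 alpha) 95.8 ± 7.72 and 122 ± 4.86 CPM. None of these 4 passed. Of 27 upstream kinases, Ras genes and adaptors edgeR called 0 (2 by DESeq2, 0 by limma-voom), with 4 lower and 1 higher at an unadjusted p under 0.05 and a median of 0.00. Map2k3, a kinase of p38, had 209.7 ± 49.1 CPM with vehicle and 128 ± 1.59 CPM with TP-18. Braf had 95.8 ± 28.2 and 58.1 ± 9.44 CPM, Nras 140.4 ± 9.77 and 121 ± 6.02 CPM and Map3k2 187 ± 50.2 and 139.9 ± 33.7 CPM.

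Of the 11 tested Ras-ERK feedback inhibitors outside the family, edgeR called 0 (2 by DESeq2, 0 by limma-voom), with 2 lower and 0 higher at an unadjusted p under 0.05 and a median of 0.18. The log2 fold changes were negative for 5 and positive for 6. Errfi1, an inhibitor of the EGF receptor, had 1479, 1582 and 1324 CPM with vehicle and 734, 910.5 and 429 CPM with TP-18. Spry2, a Sprouty inhibitor of Ras-ERK signalling, had 80.8, 89.7 and 89.8 CPM with vehicle and 50.9, 59.2 and 52.2 CPM with TP-18. Neither passed (edgeR adjusted p = 0.158 and 0.112), and Spred1, another inhibitor, was at 116 ± 14.3 and 115 ± 5.71 CPM (SD, n = 3). The Ras GTPase activators Rasa1 and Rasa2 were at 95.1 ± 9.85 and 37.9 ± 8.81 CPM with vehicle and 117 ± 14.6 and 28.9 ± 1.56 CPM with TP-18.

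Of 24 tested transcripts that ERK induces, Lif was the 1 that edgeR called, lower, against 0.11% of all genes called in either direction. DESeq2 called 5 of them. At an unadjusted p under 0.05, 9 were lower and 2 higher, and the median was -0.27. Lif, a cytokine of the interleukin-6 family, had 117, 83.2 and 87.3 CPM with vehicle and 26.4, 28.2 and 33.2 CPM with TP-18 (edgeR adjusted p = 0.0416). Its call, like that of Dusp5, ended with library totals as scaling (0.0651), on both FPKM scales (0.0734 and 0.0644) and without any one of vehicle 2, vehicle 3, TP-18 1, TP-18 2 or TP-18 3 (0.106 to 0.221), with adjusted p from 8.25e-13 (DESeq2) to 0.221 over all alternatives. Phlda1 (521 ± 63.3 and 269 ± 42.1 CPM) and Fosl1, an AP-1 subunit (314 ± 36.4 and 177 ± 21.4 CPM), had lower values in every TP-18 library without passing (edgeR adjusted p = 0.0982 and 0.112). Egr1, an immediate early factor that ERK induces through serum response factor, had 1537, 1684 and 1530 CPM with vehicle and 2256, 2359 and 1917 CPM with TP-18. Its values were thus higher in every TP-18 library, and it did not pass (edgeR adjusted p = 0.2103). That side was the less common one in this list. Every TP-18 library lay below every vehicle library for 7 of the 24 genes, against 11.7% of all genes, and above for 2. The share of all genes above was not computed. Fosb and Jun, both AP-1 subunits, were at 2558 ± 73.8 and 1507 ± 241 CPM with vehicle and 2459.8 ± 640.3 and 1135 ± 188 CPM with TP-18.

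Among 11 other tested dual-specificity phosphatases edgeR called 0 (1 by DESeq2, 0 by limma-voom), with 2 lower and 0 higher at an unadjusted p under 0.05 and a median of -0.16. Dusp11, which acts on RNA, had 155 ± 22.6 and 143 ± 19.4 CPM, Dusp18 had 58.7 ± 1.64 and 39.0 ± 6.71 CPM, and Dusp13 had 1.54 ± 1.34 and 0.398 ± 0.369 CPM. Among 8 tested phosphatases of other families that act on MAP kinases edgeR called 0 (1 by DESeq2, 0 by limma-voom), with 1 lower and 1 higher at an unadjusted p under 0.05. Their median log2 fold change was -0.22, with 5 negative. Ppp2ca, a catalytic subunit of protein phosphatase 2A, had 378 ± 15.1 and 253 ± 10.8 CPM, and Ptpn7, a tyrosine phosphatase of blood cells, 18.9 ± 3.698 and 30.5 ± 7.15 CPM. Ppm1a, Ppm1b and Ppp2r1a had 155 ± 21.8, 97.5 ± 15.6 and 266 ± 28.9 CPM with vehicle and 133 ± 18.2, 76.5 ± 3.74 and 228 ± 11.6 CPM with TP-18. Among 16 substrate kinases and adaptors edgeR called 0 (1 by DESeq2, 0 by limma-voom), with 1 lower and 1 higher at an unadjusted p under 0.05 and a median of -0.06. Mapkapk2, the main kinase downstream of p38, had 424 ± 64.2 and 300.1 ± 33.5 CPM, and Tab1, an adaptor of TAK1, 12.3 ± 1.41 and 21.9 ± 1.32 CPM. Mapkapk5, Mknk2 and Zfp36, which destabilises cytokine mRNA, had 56.2 ± 4.05, 233 ± 22.4 and 760.3 ± 100.4 CPM with vehicle and 45.9 ± 4.39, 235 ± 54.9 and 617 ± 212 CPM with TP-18.

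**Figure D5:**
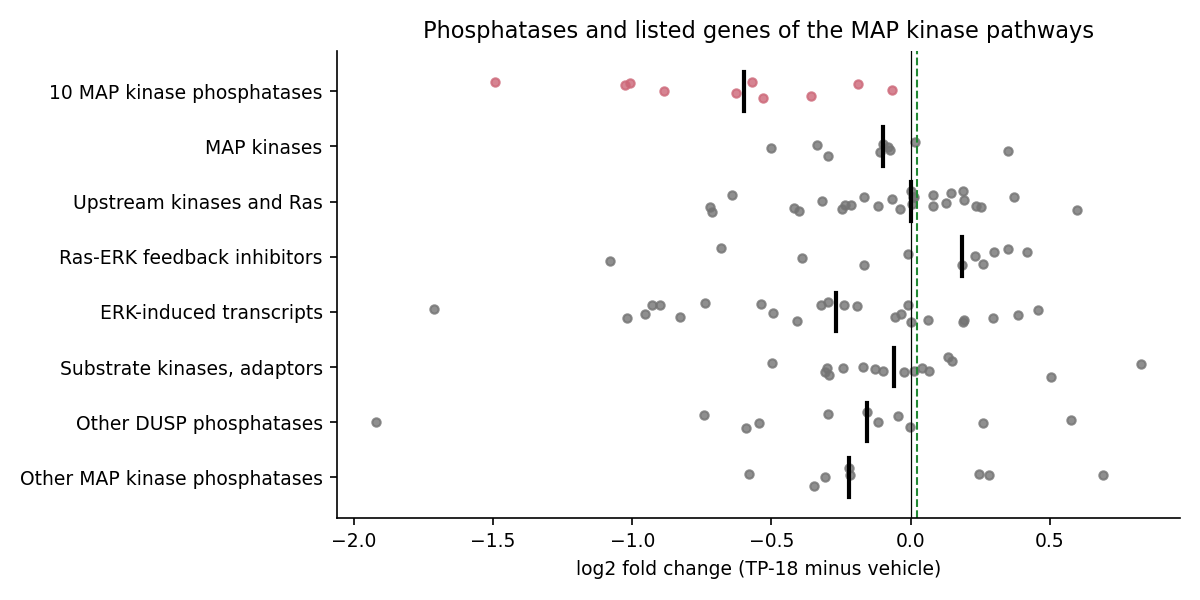
Log2 fold change (TP-18 minus vehicle) of each tested gene in the family and in 7 lists of MAP kinase pathway genes, with a black bar at each median and a dashed line at the median of all tested genes. The medians are -0.60 for the 10 phosphatases, -0.27 for the transcripts induced by ERK, -0.22 for other phosphatases acting on MAP kinases and 0.18 for the Ras-ERK feedback inhibitors.

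The genes whose log2 CPM followed Dusp5 most closely over the 6 libraries, among 9187 genes with a mean of at least 10 CPM, were Stx11 (Pearson r = 0.999), Prmt6 (0.997), Tmem33 (0.996), Map1lc3a (0.9955) and Kpna4 (0.994). These values are a description over 6 libraries that differ in treatment. As the genes were picked for likeness to Dusp5, a shared order of libraries follows from the ranking. Stx11, a syntaxin, had 53.3, 73.6 and 70.6 CPM with vehicle and 25.3, 26.8 and 25.6 CPM with TP-18. Kpna4, an importin, had 228 ± 14.4 and 156 ± 2.31 CPM (SD, n = 3), a much smaller difference with the same order of groups.

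On GRCm38 (GENCODE M21) all 10 members are protein-coding. Dusp5 (Entrez 240672) is on the plus strand of chromosome 19 at 53529109 to 53542431, and 547 of its exonic bases (22.1%) are shared with the antisense gene AC137853.2. Dusp3 (72349), on the minus strand of chromosome 11 at 101971143 to 101987013, shares 604 exonic bases (12.9%) with the antisense gene Gm20659, and Dusp8 (18218), on the minus strand of chromosome 7 at 142079490 to 142095843, shares 66 (1.36%) with Gm32786. Dusp1 (19252), on the minus strand of chromosome 17 at 26505590 to 26562128, shares 11 with Ergic1. The other 6 share none. Whether strand was used in counting is not given in the sources used here, so reads in these stretches cannot be told apart between the partners. Dusp2 (13537) lies at 127336159 to 127338376 on chromosome 2, Dusp4 (319520) at 34807297 to 34819894 on chromosome 8, Dusp6 (67603) at 99263231 to 99267489 on chromosome 10 and Dusp7 (235584) at 106368632 to 106375724 on chromosome 9. Dusp10 (63953) lies at 184013302 to 184075636 on chromosome 1 and Dusp16 (70686) at 134715468 to 134792625 on chromosome 6.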

How the data were processed

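RNA was sequenced from 3 vehicle and 3 TP-18 libraries. Per the labels' protocols, the VAHTS Universal V6 kit was used. The authors deposited raw counts per gene and FPKM values. fastp, HISAT2 and HTSeq were used with GRCm38, per the submitters' processing notes; versions, settings and the annotation release are not given in the sources used here. In the FPKM table the authors deposited, every value was checked to be the count over the library total and a fixed gene length.

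Counts of 17191 genes were filtered with edgeR's filterByExpr (minimum count 10, minimum total 15) and scaled with TMM factors. edgeR 4.0.16 (R 4.3.3) compared TP-18 with vehicle by the quasi-likelihood test, two-sided and without covariates, with Benjamini-Hochberg adjustment over 12721 genes and a threshold of 0.05. The SE is the absolute log2 fold change over the square root of F. CPM uses TMM-scaled library sizes. Libraries of a group differed by more than sampling noise. The test was first run on simulated counts. Alternatives were RLE factors, library totals, DESeq2 1.42.0, limma 3.58.1 (voom, log2(FPKM + 1), log2(FPKM + 0.1)), other filters, a replicate block and each library left out. The GENCODE exon length and the sums without Apoe or Dusp1 were chosen after seeing the data. Pairs of genes for the ratios were picked with the members' fold changes known.

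Members and lists were chosen with earlier results of these data known. Named are all members, the listed genes past the threshold, up to 3 of the most abundant and 3 with the smallest p per list, and the 5 genes most like Dusp5; some listed genes that the rule names are not reported here. Apoe, Kdr, Zbtb46, Xcr1, Clec9a and Siglech were named after their values were seen. Promoters, 250 bases before to 50 after the start, are from RefSeq on GRCm38.p6, with 9 of 10 members matched. Positions come from GENCODE M21 through the Entrez identifier. Figures were drawn with matplotlib 3.10.9.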

Additional observations from a re-analysis of the deposited data

How the results depend on the processing

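The log2 fold changes of the 10 members kept their direction and their side of the threshold in 132 of 150 comparisons with an alternative setting. For members other than Dusp5 keeping their side means staying uncalled, so this count says little about the call. Dusp5, the 1 member called, lost its call in 9 comparisons. A call was gained in 3 (Dusp2, Dusp7 and Dusp16 with DESeq2), and the sign changed in 6 (Dusp6 and Dusp8). Dusp6 changed sign with library totals as scaling (0.11), on log2(FPKM + 1) (0.0967) and on log2(FPKM + 0.1) (0.098), and ran from -0.24 to 0.0185 with each library left out. With each library left out Dusp8 ran from -0.40 to 0.0354. Genes called over the whole table were 14, against 4 with library totals, 499 with DESeq2, 27 without a filter, 2 and 2 on the FPKM scales, and 0 to 8 with a library left out (8 without vehicle 1, 1 without vehicle 2, 0 in the others). Members called were 1, against 0 with library totals or on either FPKM scale, 4 with DESeq2 and 0 to 1 with a library left out. Of transcripts induced by ERK, 1 was called, against 0 with library totals or on either FPKM scale, 5 with DESeq2 and 0 to 1 with a library left out, 0 in all but the fit without vehicle 1. The 1 gene was Lif, which had an edgeR adjusted p = 0.0655 with a replicate block. DESeq2 called 2 upstream kinases and Ras genes, 2 feedback inhibitors and 1 each of the substrate kinases, the other dual-specificity phosphatases and the other phosphatases, where edgeR called 0. The cause of these differences was not tested. With a replicate block 3 genes, 0 members and 0 transcripts induced by ERK were called, and Dusp5 had an edgeR adjusted p = 0.0820 at a log2 fold change of -1.47. Whether the numbers pair the samples is not settled by these data. Deviations of same-numbered libraries correlated at 0.161, 0.39 and -0.152. Vehicle 2 correlated most with TP-18 2 (0.39), whereas vehicle 1 correlated most with TP-18 3 (0.496) and vehicle 3 with TP-18 2 (0.279).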
